A study of Homo sapiens with 12 samples.

Results

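The genes described here are 47 axon guidance cues and receptors among the 25718 genes of the count files. The list was fixed by symbol: 20 semaphorins (SEMA), 9 plexins (PLXN), 2 neuropilins (NRP), the ligands SLIT1 and SLIT3, 3 ROBO receptors, the ligand netrin 4 (NTN4), the netrin receptors DCC and UNC5A to UNC5D, and 5 ephrin-A ligands (EFNA). Of the 47 genes, 32 had a mean above 10 counts over the 12 samples and entered the test, which covered 11451 genes in all.

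Growing axons are steered by secreted or membrane-bound cues that are read by receptors on the growth cone. Semaphorins signal through plexins, and most secreted class 3 semaphorins bind plexins with the help of a neuropilin. SLIT proteins repel axons through ROBO receptors and help to keep axons from crossing the midline. Netrins attract axons through DCC and repel them when an UNC5 receptor takes part, and the floor plate of the neural tube is a classical source of both netrin and SLIT. Ephrin-A ligands are tethered to the membrane and act on EphA receptors in topographic mapping.

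The cells were H9, an established human embryonic stem cell line, carrying a lentiviral vector in which doxycycline switches on miR-10a together with GFP or miR-10b together with GFP. They had been transduced at a multiplicity of infection of 50, expanded on irradiated mouse fibroblast feeders, and given 14 days of neural induction with SHH at 200 ng/ml towards a ventral midbrain identity. Each vector had 3 cultures with doxycycline from day 11 to day 14 and 3 control cultures that carried the same vector and received none. The controls therefore differ from the induced cultures in doxycycline as well as in miR-10, and no culture with a GFP-only vector was analysed here. The comparisons ask which transcripts change during a short pulse of miR-10. In these bulk samples, fewer cells of a type and less RNA per cell cannot be told apart.

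Total counts ranged from 10545487 to 14165426 per sample, and with each vector the controls were all deeper than the doxycycline samples. Levels are given as CPM, counts scaled to 1000000 in each sample, and 3 counts correspond to 0.212 to 0.284 CPM. The precursor of miR-10a, MIR10A, was at 723.7 ± 10.8 CPM (SD, n = 3) with doxycycline and 0.999 ± 0.363 without it in miR-10a cultures, and MIR10B was at 2619 ± 67.5 and 3.55 ± 0.81 CPM (SD, n = 3 each) in miR-10b cultures. Some progenitor and floor plate genes were abundant, with means of 5159.9 CPM for NES, 1169.7 for SOX2, 591 for FOXA1 and 626 for SHH in miR-10b controls. In miR-10a controls these means were 4595, 1067, 409 and 560 CPM. Other such genes were less abundant than these. SOX1, which has 1 listed transcript, was at 22.2 CPM in miR-10b controls and 52.2 in miR-10a controls. CORIN (21.8 CPM in miR-10b and 7.10 in miR-10a controls), FOXA2 (8.20 and 6.45) and LMX1A (5.88 and 2.93) have several transcripts. PAX6 also has several, with a mean of 0.17 counts over the 12 samples. Of the midbrain markers with several listed transcripts, LMX1B had no count in any sample and OTX2 had a mean of 6.25 counts. Replicate 2 of the miR-10b doxycycline group stood apart from its replicates, with chi-square values per degree of freedom of 3.17 and 4.11, against 1.22 to 1.93 in all other replicate pairs.

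Genes with 1 listed transcript held 92.84% of all counts in the files, and reads shared between transcripts appear to have been left out of the deposited counts. Of the 23 guidance genes with 1 transcript 22 were tested, whereas 10 of the 24 with several transcripts were. The exception with 1 transcript was SEMA3G, which had a mean of 4.58 counts and never more than 8. The other 14 untested genes were SEMA3B, SEMA3E, SEMA4A, SEMA4B, SEMA4F, SEMA6C, SEMA7A, PLXNB3, NRP1, NRP2, SLIT3, ROBO2, UNC5B and EFNA1. They had means of 0 to 3.25 counts, which for genes with several transcripts does not show low expression. Both neuropilins are among them, so that nothing can be said here of the co-receptors for class 3 semaphorins. The tested gene with the lowest mean, SEMA6A, had 11.3 counts per sample.

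The level per kilobase of transcript, which can be compared between genes, was given for the 23 genes with 1 transcript. SLIT1 was the most abundant at 198 CPM per kilobase (mean of 12 samples, range 161 to 239). The receptor genes PLXNB2 at 91.4 CPM per kilobase (84.2 to 103) and PLXNA1 at 90.4 (84.01 to 102) followed, and their ranges overlapped. DCC came next with a mean of 59.2 CPM per kilobase and a range of 45.3 to 78.8, below both plexins in every sample. SEMA4C at 50.7, SEMA6B at 42.5 and EFNA2 at 35.3 CPM per kilobase were the most abundant membrane-bound ligands. The UNC5 receptors were far below DCC, with means of 2.44 CPM per kilobase for UNC5A, 1.75 for UNC5C and 1.62 for UNC5D, and SEMA3G was the lowest at 0.0792. The lowest DCC sample, at 45.3 CPM per kilobase, lay above the highest sample of any UNC5 gene, at 2.88.

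**Figure D1:**
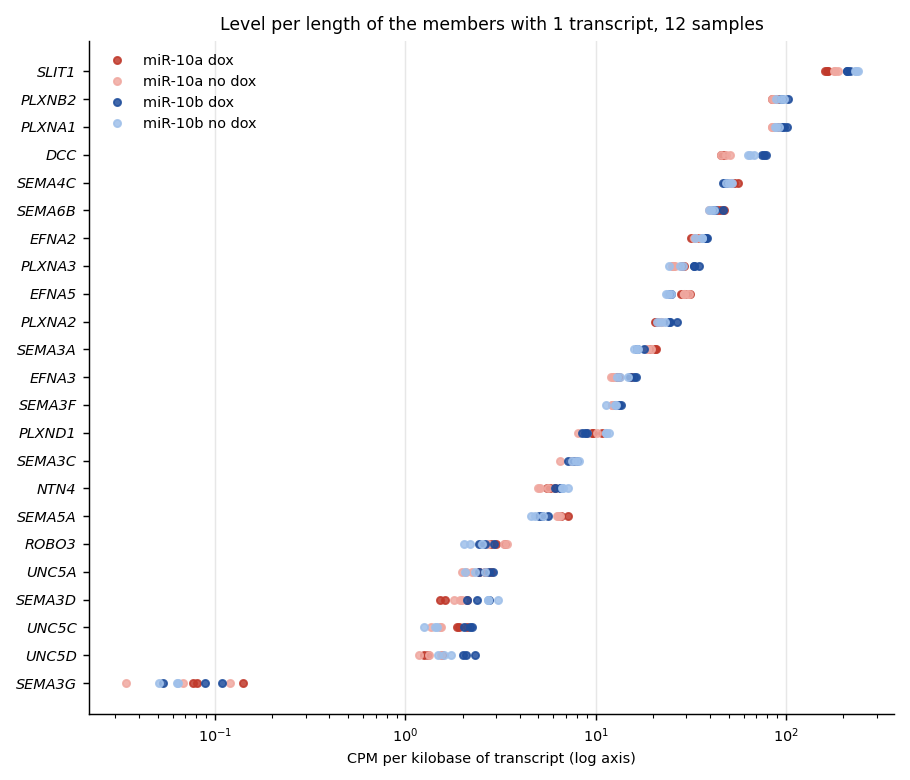
CPM per kilobase of transcript (log axis) for the 23 guidance genes with 1 listed transcript, 1 point per sample, coloured by group. SLIT1 lies above every other gene in all 12 samples, at 160.9 to 238.5 CPM per kilobase, while UNC5A, UNC5C and UNC5D lie at the lower end.

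Matches to the miR-10 seed are shown because the pulse was meant to repress transcripts that carry them. The mature miRNA is printed 5′ to 3′ with its seed, bases 2 to 8, in capitals, followed by 30 bases of 3′UTR around the match in each tested guidance gene with an 8mer or 7mer match that is shown here, with the match in capitals. Sites were found in the longest annotated 3′UTR of GENCODE 44 on GRCh37, and all of them are exonic and in the 3′UTR. The miRNA sequence is from RefSeq.
hsa-miR-10a-5p: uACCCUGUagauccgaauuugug
PLXNA2 8mer, chr1:208197021-208197028, minus strand: cccctagtggcACAGGGTAccagttttgta
PLXNA3 7mer-m8, chrX:153701611-153701617, plus strand: cacgctggaccACAGGGTccccctcaagca
DCC 7mer-m8, chr18:51058131-51058137, plus strand: caactctgcctACAGGGTcagtgttggcaa
SEMA4C 7mer-m8, chr2:97525845-97525851, minus strand: aggtggggtggACAGGGTgctgtgcccctt
PLXNA4 7mer-A1, chr7:131808707-131808713, minus strand: accagcaactcCAGGGTAccacaacagaca
The search used ACAGGGTA (8mer), ACAGGGT (7mer-m8), CAGGGTA (7mer-A1) and CAGGGT (6mer) on the transcribed strand, each site counted under its longest match. A match is a run of letters and not a measured binding site. PLXNA3 held another 7mer-m8 match at UTR position 2599, but its counted RefSeq transcript has 1136 bases outside the coding sequence, so that only the match shown, at position 583, can lie within it. UNC5D also had 7mer-m8 matches. Of the 32 tested guidance genes 6 (18.75%) had an 8mer or 7mer match, against 21.1% of all tested genes whose 3′UTR is annotated. PLXNA2 was the only tested guidance gene with an 8mer, a match found in 2.59% of those genes (240 of 9260).

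The guidance genes that changed during the pulse were a netrin receptor that rose with both vectors, UNC5C, a SLIT ligand that fell with both, SLIT1, and several plexins and netrin receptors that moved with miR-10b. With miR-10a, 2 of the 32 tested guidance genes passed the threshold, against 1.21% of all tested genes, with 1 higher (0.472% of all) and 1 lower (0.742%). With miR-10b, 8 passed, against 15.3% of all tested genes, with 6 higher (8.18% of all) and 2 lower (7.15%). For the average effect over both vectors, 9 passed, against 13.9%, with 7 higher (7.67% of all) and 2 lower (6.22%). The shares among the guidance genes were thus 6.25%, 25% and 28.1%. The median of the mean counts was 515.7 for the 32 genes and 221.8 for all tested genes, and a given change passes more easily at higher counts. The shares were not adjusted for count level. The doxycycline and control samples did not overlap for 10 guidance genes with miR-10a and 11 with miR-10b, or 31.2% and 34.4% of them, against 18.2% and 28.7% of all tested genes. Without overlap, 7 guidance genes were higher and 3 lower with miR-10a, beside 10.5% and 7.75% of all tested genes, and 8 were higher and 3 lower with miR-10b, beside 16.3% and 12.3%. The median log2 fold change of the 32 genes was 0.051 for miR-10a and 0.11 for miR-10b, beside medians of 0.010 and 0.021 over all tested genes. Over both vectors 24 of the 32 genes (75%) had a value above 0, as did 55.4% of all tested genes. Without replicate 2 of the miR-10b doxycycline group, the library that stood apart, all 8 miR-10b calls and all 9 calls over both vectors were kept, and the miR-10b values were 0.15 for PLXNA2, 0.28 for PLXNA3, 0.21 for DCC, 0.61 for UNC5C and -0.39 for PLXND1. The sizes were modest, since the largest change among those past the threshold, that of UNC5C with miR-10b, was 0.64 on the log2 scale.

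**Figure D2:**
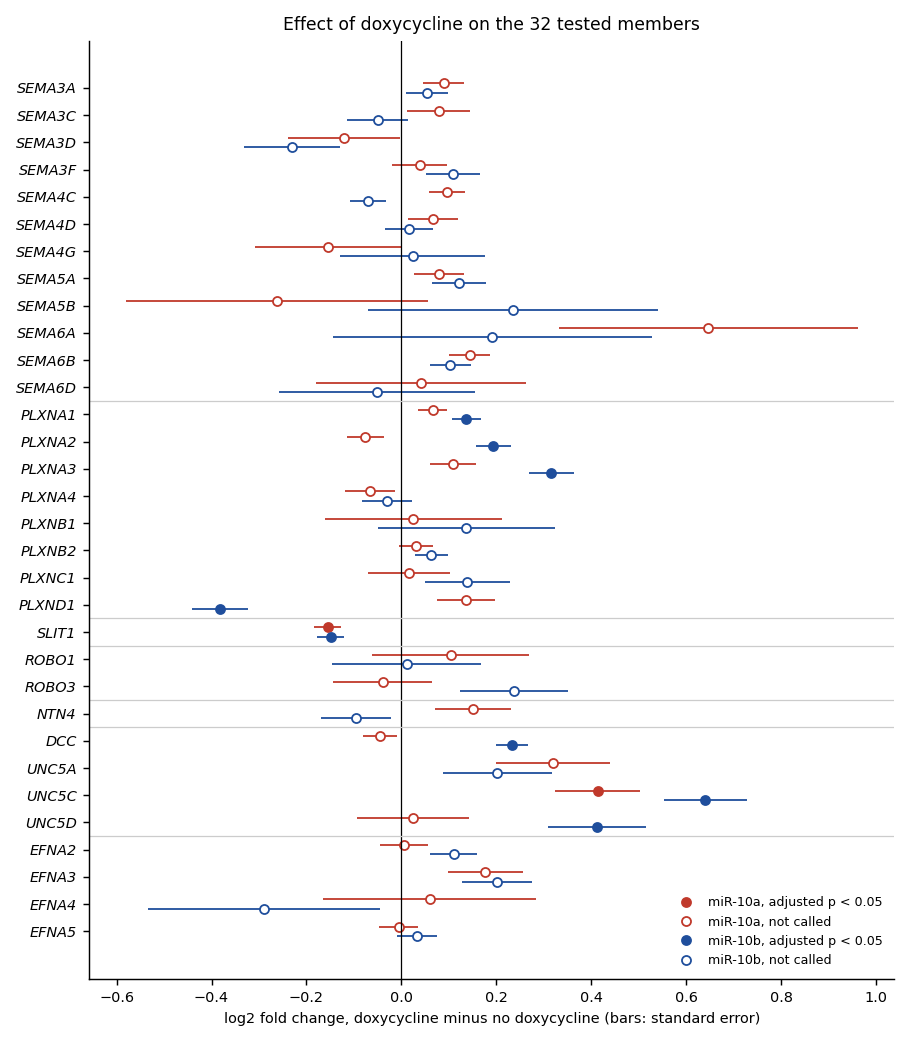
Log2 fold change of doxycycline against control cultures for the 32 tested guidance genes with the miR-10a (red) and miR-10b (blue) vectors, grouped by family, with standard errors as bars and filled points where the adjusted p was under 0.05. UNC5C and SLIT1 have filled points with both vectors, on opposite sides of 0, and the filled points of the plexins and the other netrin receptors are those of miR-10b.

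Of the semaphorins, 1 of 12 tested genes changed, and it did so over both vectors, where 13.9% of all tested genes passed. SEMA6B encodes a transmembrane class 6 semaphorin that binds A-class plexins (chr19:4542605-4581788). Its level was 187, 177 and 170.5 CPM in the miR-10a doxycycline samples and 161, 166 and 156 CPM in their controls. With miR-10b it was 166, 183 and 166 CPM with doxycycline and 159, 155 and 166 CPM without. Every miR-10a doxycycline sample was above every control of that vector, whereas the miR-10b samples overlapped. SEMA6B rose over both vectors (log2 fold change 0.12, standard error 0.030, edgeR adjusted p = 0.0041). Neither vector alone passed the threshold, with log2 fold changes of 0.14 (edgeR adjusted p = 0.095) with miR-10a and 0.10 (edgeR adjusted p = 0.10) with miR-10b.

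With each vector alone, 0 of the 12 semaphorins passed in edgeR or DESeq2, and 3 had an unadjusted edgeR p under 0.05. The secreted class 3 semaphorins thus gave no call. SEMA3A, a repellent for many axons, had the highest level per length of them, with 114 ± 3.97 and 107 ± 3.26 CPM (SD, n = 3 each) in miR-10a doxycycline and control cultures and 96.2 ± 4.65 and 92.6 ± 2.22 with miR-10b. The log2 fold changes of SEMA3A, SEMA3C, SEMA3D and SEMA3F ranged from -0.12 to 0.089 with miR-10a, and the miR-10b values ranged from -0.23 to 0.11. The class 4 gene SEMA4C, whose product signals through B-class plexins, was at 199.5, 188 and 190.2 CPM with doxycycline and 183, 183 and 174 CPM without in miR-10a cultures. Those samples did not overlap, yet the difference missed the threshold (log2 fold change 0.096, standard error 0.038, edgeR adjusted p = 0.29). With miR-10b its value was on the other side of 0 (log2 fold change -0.071, standard error 0.038, edgeR adjusted p = 0.22). SEMA4G, SEMA5B, SEMA6A and SEMA6D have several listed transcripts, so that their few counts, at most 5.44 CPM in any sample, do not show low expression. Their standard errors reached 0.34, so that changes of the size seen in SEMA6B were not detectable.

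Of the 8 tested plexins 3 rose and 1 fell with miR-10b, beside 8.18% and 7.15% of all tested genes. That is the largest number in a family, but not the largest share, since 3 of the 4 tested netrin receptors rose. The A-class plexins are receptors for class 3 semaphorins, with neuropilins, and for class 6 semaphorins directly. PLXNA1 (chr3:126701536-126756232) was at 883, 923 and 868 CPM in miR-10b doxycycline samples and 835, 793 and 805 CPM in their controls. In miR-10a cultures it was at 824, 784 and 812 CPM with doxycycline and 766, 784 and 762 CPM without. No doxycycline sample was as low as any control of its vector, although the lowest miR-10a doxycycline sample and the highest control were almost level. PLXNA1 rose with miR-10b (log2 fold change 0.14, standard error 0.031, edgeR adjusted p = 0.0016) and over both vectors (log2 fold change 0.10, edgeR adjusted p = 0.0012), while the miR-10a value was 0.066 (edgeR adjusted p = 0.42).

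PLXNA3 (chrX:153686621-153706118) was at 223, 237 and 221 CPM with doxycycline and 195, 165 and 187 CPM without in miR-10b cultures. The miR-10a samples had 193, 173 and 196 CPM with doxycycline and 173, 177 and 169 CPM without. All miR-10b doxycycline samples exceeded all other samples of the experiment, and the miR-10a groups overlapped. PLXNA3 rose with miR-10b (log2 fold change 0.32, standard error 0.047, edgeR adjusted p = 6.0e-06) and over both vectors (log2 fold change 0.21, edgeR adjusted p = 1.9e-05). The miR-10a value was 0.11 (edgeR adjusted p = 0.37), and the difference between the vectors did not pass its test (difference of the log2 fold changes 0.21, standard error 0.067, edgeR adjusted p = 0.11).

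PLXNA2 (chr1:208195587-208417729), the gene with the 8mer match, lay on opposite sides of its controls in the cultures of the 2 vectors. It was at 238, 234 and 241 CPM in miR-10a doxycycline samples and 247, 252 and 252 CPM in their controls. In miR-10b cultures it was at 282, 305 and 279.7 CPM with doxycycline and 266, 252 and 241 CPM without. The groups did not overlap with either vector, with the doxycycline samples below the controls for miR-10a and above them for miR-10b. The rise with miR-10b passed the threshold (log2 fold change 0.19, standard error 0.037, edgeR adjusted p = 0.00026) and the miR-10a value did not (log2 fold change -0.076, standard error 0.038, edgeR adjusted p = 0.46). The effects of the vectors differed by 0.27 on the log2 scale (standard error 0.053, edgeR adjusted p = 0.0025).

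PLXND1 (chr3:129274057-129325519), a receptor for SEMA3E best known from blood vessels, was the plexin that fell. Its level was 59.3, 61.7 and 62.5 CPM in miR-10b doxycycline samples and 78.9, 78.7 and 81.7 CPM in their controls. In miR-10a cultures it was 75.2, 67.6 and 66.8 CPM with doxycycline and 62.6, 71.3 and 56.3 CPM without. The miR-10b controls stood highest and clear of the doxycycline samples of that vector, while the miR-10a groups overlapped. PLXND1 fell with miR-10b (log2 fold change -0.38, standard error 0.060, edgeR adjusted p = 1.2e-05), and its effect there differed from that with miR-10a (difference of the log2 fold changes -0.52, standard error 0.085, edgeR adjusted p = 0.00025). Over both vectors the average of -0.12 passed the threshold narrowly (edgeR adjusted p = 0.047). That call was lost without any of 8 of the 12 samples, namely miR-10a doxycycline replicate 2 or 3, miR-10a control 1 or 2, miR-10b doxycycline 1 and each miR-10b control, where the value lay between -0.13 and -0.075 and the edgeR adjusted p between 0.065 and 0.24.

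Mesenchymal markers are given beside PLXND1. The summed level of 6 such genes was 291 to 313 CPM with doxycycline and 350.1 to 369.9 CPM without in miR-10b cultures, and 145 to 165 and 145 to 148 CPM in miR-10a cultures. Of the 5 tested genes of that list 2 fell with miR-10b, beside 7.15% of all tested genes. These were COL1A1 with a log2 fold change of -0.60 and COL3A1 with -0.21 (edgeR adjusted p = 1.0e-08 and 0.00038). TWIST1 (-0.0075), COL1A2 (-0.27) and LUM (-0.20) did not pass. Of the endothelial markers, CDH5 was at 3.41 ± 0.645 and 4.36 ± 0.589 CPM (SD, n = 3 each) in miR-10b doxycycline and control cultures (log2 fold change -0.36, edgeR adjusted p = 0.18). KDR was at 1.60 ± 0.344 and 1.05 ± 0.350 CPM (0.62, edgeR adjusted p = 0.16) and rose over both vectors (0.84, edgeR adjusted p = 0.0040). The 4 endothelial genes together reached at most 7.29 CPM in any sample. Their part in the PLXND1 result was not tested.

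With miR-10a, 0 of the 8 plexins passed in edgeR or DESeq2, and 3 (PLXNA1, PLXNA3 and PLXND1) had an unadjusted edgeR p under 0.05. The other 4 tested plexins passed with neither vector. PLXNA4 was at 76.3 ± 1.34 and 79.9 ± 1.56 CPM (SD, n = 3 each) with and without doxycycline in miR-10a cultures, and the groups did not overlap (log2 fold change -0.067, standard error 0.053, edgeR adjusted p = 0.70). PLXNB2, a receptor for class 4 semaphorins and one of the most abundant plexins per length, had log2 fold changes of 0.031 and 0.063, with standard errors of 0.036 and 0.035. PLXNB1 and PLXNC1 had values between 0.016 and 0.14 over the vectors.

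SLIT1 (chr10:98757795-98945716), a secreted repellent read by ROBO receptors, was the guidance gene that fell with both vectors. It was at 1326, 1276 and 1309 CPM in miR-10a doxycycline samples and 1444, 1488 and 1421 CPM in their controls. With miR-10b it was at 1669.7, 1712 and 1652 CPM in doxycycline samples and 1892, 1857 and 1834 CPM in controls. Every doxycycline sample lay below every control of its vector, although all miR-10b samples lay above all miR-10a samples. The miR-10a log2 fold change was -0.15 (standard error 0.028, edgeR adjusted p = 0.0012), and that of miR-10b was -0.15 (standard error 0.028, edgeR adjusted p = 0.00020). Over both vectors it was -0.15 (edgeR adjusted p = 7.3e-07), and the effects differed by 0.0056 with a standard error of 0.040.

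Floor plate and progenitor markers are given beside SLIT1. The summed level of 8 floor plate genes was 1061 to 1095 CPM with doxycycline and 1070.5 to 1089 CPM without in miR-10a cultures, and 1297 to 1356 and 1346 to 1369.6 CPM in miR-10b cultures. Of the 6 tested, CORIN fell with miR-10b (-0.77, edgeR adjusted p = 6.3e-08) and over both vectors (-0.53, edgeR adjusted p = 1.2e-05), while FOXA1 and SHH had values of -0.020 and -0.031 over both vectors (edgeR adjusted p = 0.63 and 0.39). LMX1A (0.33), FOXA2 (0.11) and EN1 (0.068) lay above 0 over both vectors and did not pass (edgeR adjusted p = 0.064, 0.45 and 0.19). The median of the 6 genes over both vectors was 0.024. The 8 progenitor genes summed to 10354 to 10717 CPM with doxycycline and 10734 to 10801 CPM without in miR-10a cultures, and to 11505 to 11671 and 11944 to 12066 CPM in miR-10b cultures, so that the doxycycline samples were lower without overlap. Of the 7 tested, NES (-0.14) and HES5 (-0.16) fell and MSI1 (0.10) rose with miR-10b (edgeR adjusted p = 0.00034, 0.033 and 0.030). NES went from 5160 to 4696 CPM there, whereas VIM, as abundant, was at 4842 CPM without and 4857 CPM with doxycycline. With miR-10a 0 of the 7 passed, and NES was at -0.045 and VIM at -0.0071. Their part in the SLIT1 result was not tested.

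Of the ROBO receptors, 0 of 2 passed with either vector in edgeR or DESeq2, and ROBO3 alone had an unadjusted edgeR p under 0.05, with miR-10b. ROBO3, a receptor known from commissural axons, was at 13.9 ± 1.17 and 14.4 ± 1.69 CPM with and without doxycycline in miR-10a cultures and at 12.1 ± 1.13 and 10.3 ± 1.19 CPM in miR-10b cultures (SD, n = 3 each). Its log2 fold change with miR-10b was 0.24 (standard error 0.11, edgeR adjusted p = 0.17). ROBO1, with 3 listed transcripts, had at most 5.41 CPM in any sample and log2 fold changes of 0.10 and 0.011, each with a standard error of at least 0.16.

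Of the 4 tested netrin receptors 3 rose with miR-10b, DCC, UNC5C and UNC5D, beside 8.18% of all tested genes. The remaining receptor, UNC5A, passed over both vectors only. UNC5C (chr4:96083655-96470357), which mediates repulsion by netrin, rose with both vectors. It was at 19.02, 18.5 and 20.8 CPM with doxycycline and 15.1, 13.6 and 15.1 CPM without in miR-10a cultures. In miR-10b cultures it was at 20.1, 22.1 and 21.6 CPM with doxycycline and 14.2, 14.4 and 12.3 CPM without. Every one of the 6 doxycycline samples was above all 6 controls. UNC5C had log2 fold changes of 0.41 for miR-10a (standard error 0.089, edgeR adjusted p = 0.0071) and 0.64 for miR-10b (standard error 0.088, edgeR adjusted p = 1.3e-06). Over both vectors it was 0.53 (edgeR adjusted p = 8.8e-08), and the effects of the vectors did not pass the test for a difference (difference of the log2 fold changes 0.23, standard error 0.13, edgeR adjusted p = 0.46). The miR-10a call was lost without doxycycline replicate 3 (log2 fold change 0.37, edgeR adjusted p = 0.075) and without control replicate 2 (0.36, edgeR adjusted p = 0.078).

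DCC (chr18:49866567-51062269), the receptor for attraction by netrin, rose with miR-10b and not with miR-10a. The miR-10b samples had 779, 804 and 768 CPM with doxycycline and 663, 693 and 644 CPM without. In miR-10a cultures DCC was at 475, 467 and 485 CPM with doxycycline and 492, 516 and 463 CPM without. All miR-10b doxycycline samples exceeded their controls, all miR-10b samples exceeded all miR-10a samples, and the miR-10a groups overlapped. The change with miR-10b was 0.23 (standard error 0.035, edgeR adjusted p = 5.2e-06), that with miR-10a was -0.045 (standard error 0.036, edgeR adjusted p = 0.70), and the effects differed by 0.28 (standard error 0.050, edgeR adjusted p = 0.00074). The average over both vectors was 0.094 (edgeR adjusted p = 0.0079), a call that was lost without miR-10a control replicate 3 (0.074, edgeR adjusted p = 0.052).

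UNC5D, another receptor for repulsion by netrin, was at 15.2, 14.7 and 16.96 CPM with doxycycline and 10.8, 12.7 and 11.6 CPM without in miR-10b cultures. Its miR-10a samples had 9.15, 9.60 and 11.4 CPM with doxycycline and 11.2, 9.74 and 8.65 CPM without. The miR-10b doxycycline samples were above all others, and the miR-10a groups overlapped. UNC5D rose with miR-10b (log2 fold change 0.41, standard error 0.10, edgeR adjusted p = 0.0045), whereas the miR-10a value was 0.024 (standard error 0.12) and the difference between the vectors did not pass (difference of the log2 fold changes 0.39, standard error 0.16, edgeR adjusted p = 0.24). UNC5A (chr5:176237520-176307899), of the same family, was at 10.6, 9.77 and 9.10 CPM with doxycycline and 7.80, 8.33 and 7.45 CPM without in miR-10a cultures. In miR-10b cultures it was at 10.8, 10.3 and 9.15 CPM with doxycycline and 7.70, 9.85 and 8.64 CPM without. Only the miR-10a groups were free of overlap. UNC5A passed the threshold over both vectors (log2 fold change 0.26, standard error 0.083, edgeR adjusted p = 0.031), with values of 0.32 and 0.20 for miR-10a and miR-10b alone (edgeR adjusted p = 0.25 and 0.26). DESeq2 did not call it (adjusted p = 0.10), nor did edgeR without miR-10a doxycycline replicate 1 or 2, miR-10a control 1 or 3, miR-10b doxycycline 1 or miR-10b control 1 or 3, with values of 0.22 to 0.26 and adjusted p of 0.051 to 0.095.

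With doxycycline no call was made for the netrin ligands NTN4 and NTN1. NTN4, a netrin of basement membranes, was at 20.98 ± 0.924 and 18.9 ± 1.22 CPM with and without doxycycline in miR-10a cultures and at 23.1 ± 0.885 and 24.7 ± 0.936 CPM in miR-10b cultures (SD, n = 3 each). Its miR-10b doxycycline samples lay below all miR-10b controls, but the difference missed the threshold (log2 fold change -0.095, standard error 0.074, edgeR adjusted p = 0.44). NTN1, the floor plate netrin, which is in the list of further guidance genes, was at 2391 ± 48.9 and 2334 ± 16.5 CPM in miR-10b cultures, with log2 fold changes of 0.042 and 0.035 for the 2 vectors (standard error 0.027 and 0.027, edgeR adjusted p = 0.62 and 0.44). Netrin receptors are expressed by neurons among other cells, and early neuron markers are given beside them. The summed level of 11 such genes was 2586 to 2661 CPM with doxycycline and 2659 to 2693 CPM without in miR-10b cultures, and 2287 to 2363 and 2396 to 2457 CPM in miR-10a cultures. Of the 6 tested, NEFL (0.16) and INA (0.092) rose and SYT4 (-0.28) fell with miR-10b, with edgeR adjusted p of 0.00031, 0.037 and 1.6e-07. SYT4, a large part of the sum, went from 1119 to 923 CPM there. It alone passed with miR-10a, at -0.17 (edgeR adjusted p = 0.0038). NHLH1 (0.14), TUBB3 (0.22) and STMN2 (0.34) did not pass with miR-10b, and NHLH1 rose over both vectors (0.15, edgeR adjusted p = 0.0073). The median of the 6 genes was 0.15 with miR-10b and 0.0075 with miR-10a. Their part in the receptor results was not tested.

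Of the ephrin-A ligands, EFNA3 (chr1:155051313-155060014) changed. It was at 23.1, 23.7 and 27.3 CPM with doxycycline and 22.02, 21.9 and 21.5 CPM without in miR-10a cultures. In miR-10b cultures it was at 28.5, 29.1 and 26.9 CPM with doxycycline and 24.1, 26.4 and 23.1 CPM without. Doxycycline and control samples did not overlap with either vector, the doxycycline samples being higher. EFNA3 rose over both vectors (log2 fold change 0.19, standard error 0.054, edgeR adjusted p = 0.015), with 0.18 for miR-10a and 0.20 for miR-10b alone (edgeR adjusted p = 0.37 and 0.062). That call was lost with DESeq2 (adjusted p = 0.057) and without miR-10a doxycycline replicate 3 (0.15, edgeR adjusted p = 0.072) or miR-10b control replicate 3 (0.17, edgeR adjusted p = 0.051). EFNA5 had values of -0.0060 and 0.033 with standard errors of 0.041 and 0.042. EFNA2 had values of 0.0056 and 0.11, and its miR-10b samples did not overlap, at 81.7, 80.1 and 82.6 CPM with doxycycline and 77.3, 77.8 and 71.4 CPM without (edgeR adjusted p = 0.13). EFNA4, at most 2.90 CPM, had standard errors of 0.22 and 0.25.

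**Figure D3:**
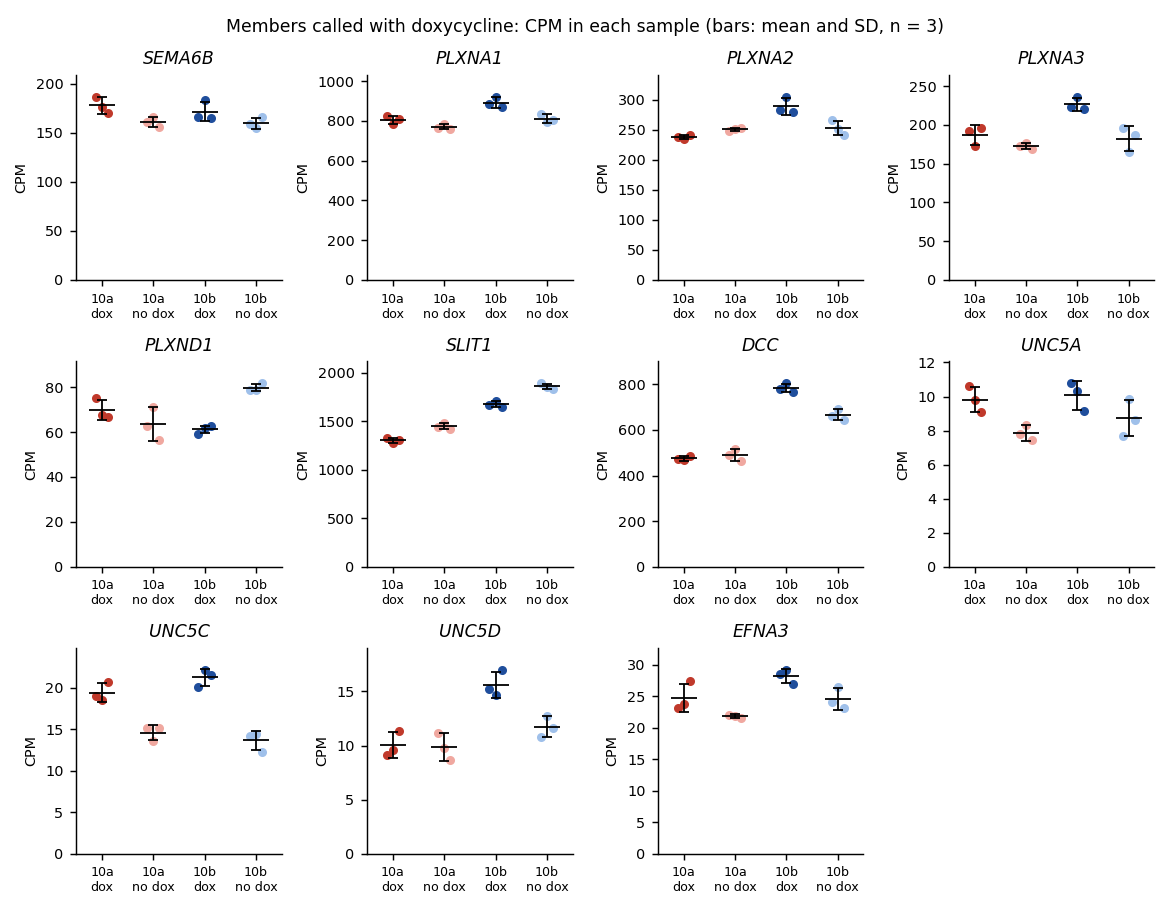
CPM in each of the 12 samples for the 11 guidance genes that passed the threshold with miR-10a, miR-10b or over both vectors, with 1 panel per gene, 1 point per sample, and the mean and SD of each group of 3 in black. All 6 doxycycline samples lie above all 6 controls for UNC5C, and for SLIT1 the doxycycline samples lie below the controls of their own vector.

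A test of the interaction asked which effects were not shared by miR-10a and miR-10b. It was passed by 3 of the 32 guidance genes, against 1.96% of all tested genes. PLXNA2 and DCC had the higher value for miR-10b (0.576% of all genes in that direction), and PLXND1 had the lower (1.38%). For the other 29 genes no difference between the vectors was shown, including PLXNA1, PLXNA3 and UNC5D, which passed with miR-10b and not with miR-10a. The MIR10B precursor reached 2619 CPM with doxycycline and MIR10A 723.7 CPM, so that the vectors also differed in the level of precursor counts.

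The control cultures of the vectors differed in many guidance genes without doxycycline. Of the 32 genes, 12 passed the threshold between miR-10b and miR-10a controls (37.5%), against 14.1% of all tested genes, with 7 higher (7.41% of all) and 5 lower (6.72%) in miR-10b. This share too was not adjusted for the higher counts of the guidance genes (median 515.7 against 221.8). Vector, transduction and culture cannot be told apart in this comparison. DCC showed 667 ± 24.4 CPM in miR-10b and 490.3 ± 26.9 CPM in miR-10a controls (SD, n = 3 each), a log2 difference of 0.44 (standard error 0.035, edgeR adjusted p = 2.1e-12). The difference of SLIT1 was 0.36 (edgeR adjusted p = 1.9e-12), more than the size of its fall with doxycycline. SEMA3D, a secreted class 3 semaphorin, had the largest value, at 17.7 ± 1.24 and 11.95 ± 0.585 CPM (log2 difference 0.57, edgeR adjusted p = 0.00010). NTN4, at 24.7 ± 0.936 and 18.9 ± 1.22 CPM, was also higher in miR-10b controls (0.39, edgeR adjusted p = 0.00021).

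Lower in miR-10b controls was ROBO3, at 10.3 ± 1.19 against 14.4 ± 1.69 CPM (-0.48, edgeR adjusted p = 0.0014). The class 5 semaphorin SEMA5A was lower as well, at 57.7 ± 4.52 against 75.2 ± 1.74 CPM (-0.38, edgeR adjusted p = 1.5e-06). EFNA5 had 129 ± 4.07 against 159 ± 6.34 CPM (-0.30, edgeR adjusted p = 7.8e-07), and SEMA3A had 92.6 ± 2.22 against 107 ± 3.26 CPM (-0.21, edgeR adjusted p = 0.00053). These 4 genes, all cues but ROBO3, kept their calls in all 19 alternatives tried. PLXNC1 was lower, with a log2 difference of -0.29 (edgeR adjusted p = 0.017), at 17.5 ± 0.518 against 21.4 ± 2.26 CPM. PLXNB2 (592 ± 27.4 against 547 ± 12.7 CPM, 0.11, edgeR adjusted p = 0.023) and SEMA4D (64.99 ± 0.509 against 58.6 ± 2.84 CPM, 0.15, edgeR adjusted p = 0.047) were higher. Without miR-10a control replicate 1 all 3 of these calls were lost (edgeR adjusted p = 0.17, 0.067 and 0.081), and without miR-10b control replicate 3 as well (edgeR adjusted p = 0.077, 0.070 and 0.10). PLXNB2 and SEMA4D were also lost without miR-10a control 3 (edgeR adjusted p = 0.13 and 0.25) or miR-10b control 1 (0.19 and 0.12), and SEMA4D without miR-10b control 2 (0.091), miR-10a doxycycline 2 (0.053) or miR-10b doxycycline 1 (0.052).

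PLXND1 was at 79.7 ± 1.67 CPM in miR-10b and 63.4 ± 7.55 CPM in miR-10a controls (log2 difference 0.33, edgeR adjusted p = 7.0e-05). This comparison and the fall of PLXND1 with miR-10b share the 3 miR-10b controls, as do those of DCC and SLIT1, so that they are not independent. Mesenchymal and floor plate genes also differed between the controls. Of all tested genes, 7.41% were higher and 6.72% lower in miR-10b controls. COL3A1 was higher by 1.95 and COL1A1 by 1.16 on the log2 scale in miR-10b controls, and 4 of the 5 tested mesenchymal markers were higher. Of the 6 tested floor plate markers 4 were higher, among them CORIN (1.61), FOXA1 (0.53) and SHH (0.16), and NTN1 was at 2334 ± 16.5 against 1636 ± 31.2 CPM (0.51). Of the 7 tested progenitor markers 3 were higher, SOX2 (0.13), NES (0.17) and VIM (0.19), and 1 was lower, SOX1 (-1.23). Their part in the differences between the guidance genes was not tested.

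**Figure D4:**
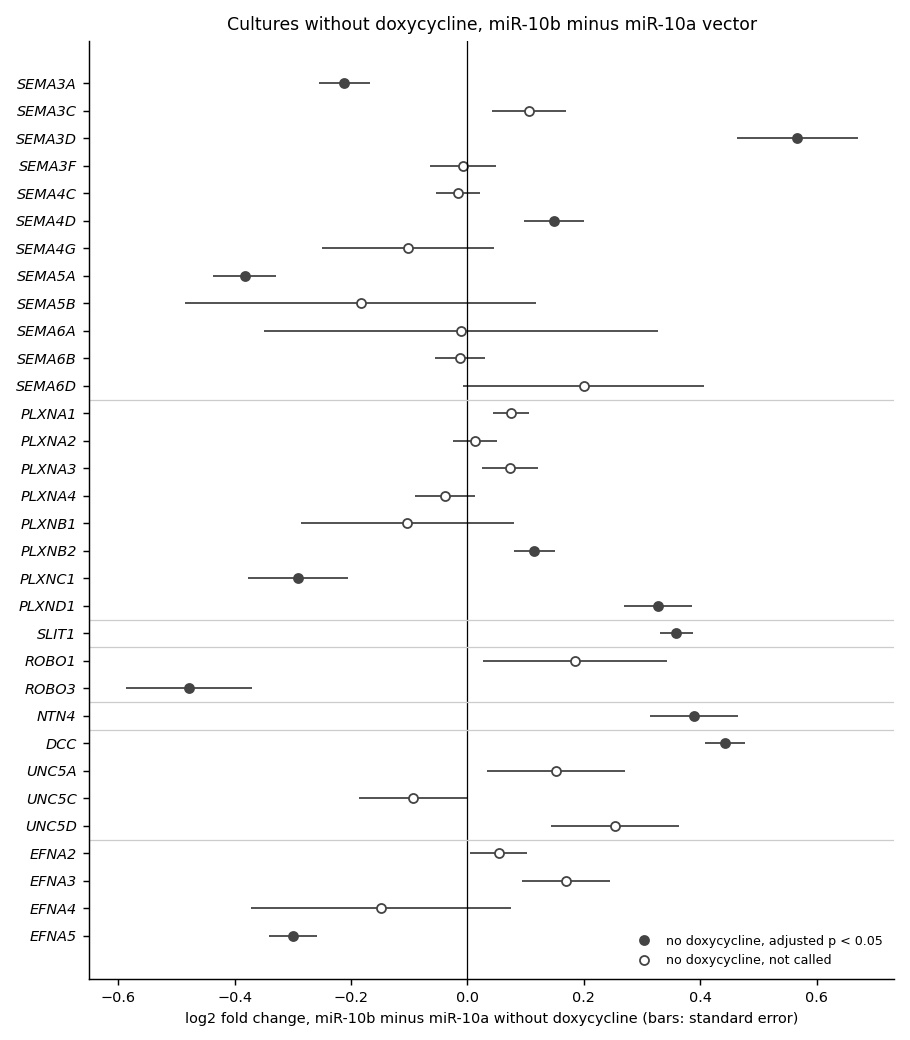
Log2 difference of miR-10b minus miR-10a cultures without doxycycline for the 32 tested guidance genes, grouped by family, with standard errors as bars and filled points where the adjusted p was under 0.05. Of the 12 filled points 7 lie to the right of 0, with SEMA3D the farthest, and 5 to the left, with ROBO3 the farthest.

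Among the 6 guidance genes with an 8mer or 7mer match, 0 fell with either vector in edgeR or DESeq2, nor at an unadjusted edgeR p under 0.05. PLXNA2, PLXNA3, DCC and UNC5D rose with miR-10b, at 0.19, 0.32, 0.23 and 0.41. The other two were SEMA4C, at 0.096 with miR-10a and -0.071 with miR-10b, and PLXNA4, at -0.067 and -0.030. Across all tested genes with an 8mer, the median was -0.021 for miR-10a and -0.042 for miR-10b. The miR-10a value of PLXNA2, -0.076, lay below that median and its miR-10b value above it. SLIT1 and UNC5C, which changed with both vectors in opposite directions, each had only 6mer matches, a class found in 19.6% of the tested genes with a 3′UTR, and PLXND1 had no match.

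**Figure D5:**
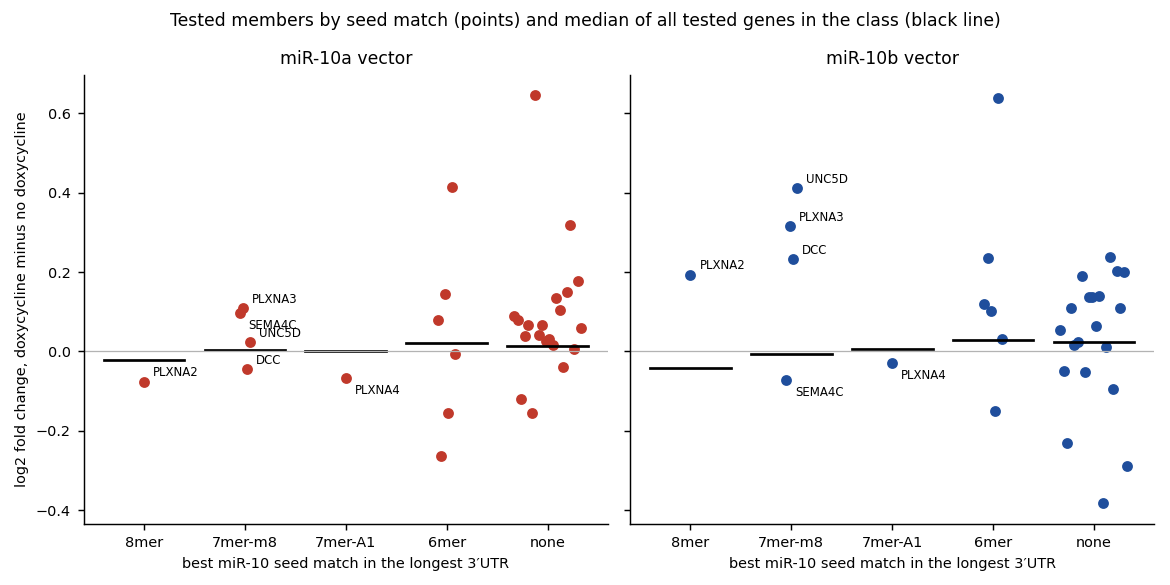
Log2 fold change of the 32 tested guidance genes by the best seed match in the longest 3′UTR, for the miR-10a (left) and miR-10b (right) vectors, with 1 point per gene and a black line at the median of all tested genes of the class. With miR-10b, PLXNA2, PLXNA3, DCC and UNC5D lie above the medians of their classes, and SEMA4C and PLXNA4 lie below. With miR-10a, PLXNA2, DCC and PLXNA4 lie below and PLXNA3, SEMA4C and UNC5D above.

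Further guidance genes were described from lists fixed by symbol. Of 22 other ligands, receptors and co-receptors 13 were tested, and over both vectors 1 rose and 2 fell, beside 7.67% and 6.22% of all tested genes. With miR-10a 0 rose and 2 fell, beside 0.472% and 0.742% of all tested genes. With miR-10b 3 rose and 2 fell, beside 8.18% and 7.15%. FLRT2, a membrane protein that binds UNC5 receptors, fell from 313 ± 4.12 to 271 ± 6.56 CPM with miR-10a and from 437 ± 1.81 to 341 ± 7.65 CPM with miR-10b (SD, n = 3 each). Its log2 fold changes were -0.21 and -0.36 (edgeR adjusted p = 0.00015 and 1.1e-10). CNTN2, an axonal adhesion molecule of the immunoglobulin superfamily, fell as well, with log2 fold changes of -0.14 and -0.14 (edgeR adjusted p = 0.035 and 0.0030). NTNG2, a netrin-G anchored to the membrane, rose over both vectors by 0.20 (edgeR adjusted p = 0.0043). With miR-10b, FLRT1 (0.52) and NRCAM (0.59) also passed (edgeR adjusted p = 0.0065 and 0.049). DESeq2 called 4 genes of this list with miR-10b, where edgeR called 5, and gave NRCAM no adjusted p. The median of the 13 genes over both vectors was 0.025, beside 0.015 for all tested genes.

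Of 48 effectors that act inside the growth cone 34 were tested. With miR-10a 0 passed in edgeR or DESeq2, beside 1.21% of all tested genes in edgeR, and 3 had an unadjusted edgeR p under 0.05. With miR-10b 2 rose and 2 fell, beside 8.18% and 7.15% of all tested genes. Over both vectors 3 of the 34 passed, beside 13.9%. TIAM1 and VAV3, exchange factors that activate RAC, fell there, with log2 fold changes of -0.20 and -0.17 (edgeR adjusted p = 1.8e-05 and 0.049), and MICAL3, of a family of oxidoreductases that includes effectors of plexins, rose by 0.12 (edgeR adjusted p = 0.017). SRGAP1, a GTPase-activating protein that acts with ROBO receptors, rose by 0.12 with miR-10b (edgeR adjusted p = 0.049). The median of the 34 genes over both vectors was 0.035, beside 0.015 for all tested genes.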

How the data were processed

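The deposited files hold raw counts of reads per RefSeq transcript, 1 file per sample, which the authors made from 50-base single-end reads mapped to hg19. The submitters' processing notes name STAR, Subread and featureCounts without versions, and the strand setting is not given in the sources used here, so that reads of overlapping antisense transcripts cannot be told apart. The sample labels name a miRNeasy kit and Illumina libraries, and the methods of the study name RNeasy and NuGEN kits. Each file had 51799 rows for 48101 transcripts, and 3698 repeated rows with the same counts were dropped. A gene with several transcripts was represented by that with the largest mean count.

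The test was the quasi-likelihood F test of edgeR 4.0.16 under R 4.3.3 (glmQLFTest, total count as library size, 4 group means in 1 fit of all 12 samples, Benjamini-Hochberg adjustment over 11451 genes with a mean above 10 counts, threshold 0.05). A gene passed, rose or fell where its adjusted p was under 0.05. The contrasts were doxycycline against control for each vector, their average, their difference, and miR-10b against miR-10a controls. The code was tested on simulated data. Alternatives were TMM, DESeq2 1.42.0, other count filters, a replicate block, counts summed over transcripts, fits of 6 samples and leaving out each sample. Nothing says that replicates came from separate differentiations, so p-values measure the spread between these samples. The replicate numbers gave no sign of pairing the samples, which does not exclude it.

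Values in every sample are given for members past the threshold with miR-10a, miR-10b or over both vectors and for those with an 8mer, and group means or ranges for the rest. In the other lists, the genes with the smallest adjusted p over both vectors are named. NTN1, FLRT1, NRCAM and SRGAP1 and the marker genes named were chosen after their values were seen. The guidance genes and all lists were chosen with earlier results of these data known.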

Additional observations from a re-analysis of the deposited data

Results flagged for a closer look

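In 3 guidance genes the effect of doxycycline differed between the vectors by the test of the difference itself. For PLXNA2 the effect with miR-10b exceeded that with miR-10a by 0.27 on the log2 scale (edgeR adjusted p = 0.0025), and the doxycycline samples lay below all controls with miR-10a and above all controls with miR-10b. For DCC the difference was 0.28 (edgeR adjusted p = 0.00074), with all 3 miR-10b doxycycline samples above their controls and the miR-10a samples overlapping. For PLXND1 it was -0.52 (edgeR adjusted p = 0.00025), with all 3 miR-10b doxycycline samples below their controls. These calls were kept in the alternatives run, and without single samples the difference lay between 0.23 and 0.31 for PLXNA2, between 0.24 and 0.32 for DCC and between -0.62 and -0.44 for PLXND1. The mesenchymal genes COL1A1 (-0.65) and COL3A1 (-0.38) and the neuronal gene NEFL (0.18) also differed between the vectors (edgeR adjusted p = 9.7e-05, 0.0018 and 0.019). Their part in the results on PLXND1 and DCC was not tested.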

How the results depend on the processing

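Of 34 calls of a guidance gene in a contrast, 26 were kept in every alternative, 8 were lost in some and 0 changed sign. Leaving out 1 sample each gave 1 to 3 guidance genes past the threshold with miR-10a, 8 to 10 with miR-10b, 6 to 10 over both vectors, 3 to 4 for the difference and 9 to 13 between the controls. The lowest miR-10a count, 1, came without miR-10a doxycycline replicate 3 or control replicate 2, where UNC5C was lost. All tested genes called with miR-10a numbered 272 in the fit of 6 samples and 78 to 268 without single samples, beside 139, and those for the difference 343 without a filter on counts and 140 to 340 without single samples, beside 224. DESeq2 lost UNC5A and EFNA3 over both vectors and SEMA4D and PLXNC1 between the controls. Without a filter on counts SEMA6B with miR-10a (edgeR adjusted p = 0.046) and PLXNA3 for the difference (0.019) passed as well, and SEMA4D between the controls was lost (0.072). The cause of these changes was not tested beyond the samples removed.

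Deviations from the group means correlated at -0.030 to 0.011 between samples with the same replicate number and at -0.022 to 0.034 between those with different numbers. These values gave no sign that the numbers pair the samples. They cannot exclude it, since at chi-square values of 1.22 to 1.93 per degree of freedom much of such deviations is counting noise. With the replicate number as a block, 2, 8, 9, 3 and 12 guidance genes passed in the 5 contrasts, the same numbers as without it. In genes with few counts, such as SEMA6A and EFNA4, changes of the size called in abundant genes were not detectable. Both have several listed transcripts, so that their few counts do not show low expression.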
